A study of Caenorhabditis elegans with 6 samples.

Results

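The annular furrow collagens are a group of Caenorhabditis elegans cuticle proteins made by the epidermis, and their genes were followed here in embryos of the mutant strain yap-1(ys38) and of the wild-type strain N2. The group was taken as 6 genes, dpy-2, dpy-3, dpy-7, dpy-8, dpy-9 and dpy-10, and a probe set (a group of oligonucleotides on the array read out as a single value) belonged to it when the platform annotation gave it 1 of these symbols. By that rule 6 of the 22625 probe sets on the array belonged to the group, and they covered 5 of the 6 genes, out of 17118 genes that the annotation names by probe sets with 1 symbol: dpy-2 had 2 probe sets, dpy-3, dpy-7, dpy-8 and dpy-9 had 1 each, and dpy-10 was not analysed here. Of these, 4 probe sets for 3 genes (dpy-2, dpy-3 and dpy-7) were bright enough to be tested, among 13529 tested in all. dpy-8 and dpy-9 were too dim and are given as values.

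The nematode cuticle carries ring-shaped ridges, the annuli, separated by circumferential furrows, and a narrow band of collagen lines each furrow. The furrow collagens are needed together for these bands: worms that lack any of them lose the furrows and become short and fat, the dumpy shape for which the dpy genes are named. Epidermal cells also read the state of the furrows, and their loss in larvae and adults is known to switch on osmolyte, detoxification and antimicrobial peptide genes. In the moulting cycles of larvae the furrow collagen genes are known to be transcribed in an earlier wave than several other body-shape collagens such as dpy-13. The YAP protein, for which yap-1 is the worm gene, is a transcriptional coactivator held in check by the kinases of the Hippo pathway.

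Messenger RNA of whole embryos was measured with 3 biological replicates of yap-1(ys38) and 3 of N2, with 1 array per replicate. Embryos were obtained by bleaching egg-bearing adults, and the labels give no embryo age and do not state what the ys38 allele changes. The submitters left wild type replicate 2 out for departing from the rest of its group. The strains were therefore compared over yap-1(ys38) replicates 1, 2 and 3 and wild type replicates 1 and 3, and the value of wild type replicate 2 is given beside each result. Because whole embryos were extracted, fewer epidermal cells and less RNA per epidermal cell cannot be told apart.

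The yap-1 gene itself had 1 probe set, which read 371, 260.4 and 302 in yap-1(ys38) replicates 1, 2 and 3, against 267, 443 and 555 in wild type replicates 1, 2 and 3 (log2 fold change -0.32, SE 0.34). Its position relative to the allele is unknown, so this value does not check the genotype. The median intensity over all probe sets was 118 to 133 in the yap-1(ys38) arrays and 122 and 123 in wild type replicates 1 and 3, with 86.6 in wild type replicate 2. Precision is limited by there being 2 or 3 arrays per strain. As a measure of RNA integrity, the log2 ratio of signal at the 3-prime end to that at the 5-prime end averaged over 4 control transcripts was 2.86, 3.00 and 3.07 in yap-1(ys38) replicates 1, 2 and 3 and 2.68, 3.64 and 3.74 in wild type replicates 1, 2 and 3. Of 29 marker genes of embryonic and carried-over tissues, 28 had a probe set and all 28 were bright enough to be tested, the epidermal factors lin-26, elt-1, elt-3 and nhr-25 among them.

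The furrow collagen transcripts that could be measured well did not differ between the strains beyond the spread between replicates. dpy-2, dpy-3 and dpy-7 had log2 fold changes of 0.10, 0.12 and -0.05 in yap-1(ys38) over wild type, and 0 of the 3 genes rose or fell (limma, Benjamini-Hochberg adjusted over all 13529 probe sets). The test called 0% of all probe sets (0 of 13529), and 141 of them (1.04%) had an unadjusted p under 0.05, none of which belonged to the 3 genes. That share is below the 0.05 that such a threshold gives on average when nothing differs, so the test may miss differences. The reason for the low share was not tested. When the replicate number entered as a block, the 5 arrays held 2 same-numbered pairs and 12 probe sets were called, 0 of them a furrow collagen. With the block and all 6 arrays, which hold 3 pairs, 0 were called. The median log2 fold change of the 3 genes was 0.10, beside 0.01 over all probe sets tested. The methods' t-test at their threshold of 0.05 also picked 0 of the 3 genes, against 202 of all probe sets tested, and 0 after Benjamini-Hochberg adjustment.

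dpy-2 encodes a furrow collagen whose gene stands next but one to dpy-10 on chromosome II in the RefSeq annotation, with 1 protein-coding gene between them. Its brighter probe set, 184162_at, read 2202, 2356 and 1819 in yap-1(ys38) replicates 1, 2 and 3, against 1995, 2028 and 1962 in wild type replicates 1, 2 and 3. The wild-type arrays lay close together and the yap-1(ys38) arrays lay on both sides of them, with replicate 3 lowest, so the strains overlapped. Mean log2 intensity was 11.05 ± 0.19 (SD, n = 3) in yap-1(ys38) and 10.95 ± 0.017 (SD, n = 2) in wild type. The fold change was 1.07, and its 95% confidence interval ran from 0.806 to 1.41 (limma, adjusted p = 0.9998).

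The second dpy-2 probe set, 173355_s_at, is annotated to the same gene, and its probes were not compared with those of the first. It read 2136, 2110 and 1686 in the yap-1(ys38) arrays, against 2017, 1761 and 1846 in the wild-type arrays. Again yap-1(ys38) replicate 3 was the lowest of all 6 arrays and the strains overlapped. The fold change was 1.02, with an interval from 0.765 to 1.36.

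dpy-3 encodes another collagen of the furrow band, and its gene lies on the X chromosome. Its probe set 189723_s_at read 4775, 4435 and 3829 in yap-1(ys38) replicates 1, 2 and 3, against 4430, 3302 and 3568 in wild type replicates 1, 2 and 3. The yap-1(ys38) group lay above wild type replicates 2 and 3, while wild type replicate 1 lay among them, so the strains overlapped. The log2 means were 12.08 ± 0.16 (SD, n = 3) in yap-1(ys38) and 11.96 ± 0.22 (SD, n = 2) in wild type, a fold change of 1.09 with an interval from 0.834 to 1.42 (limma, adjusted p = 0.9998). The direction rested on wild type replicate 3, without which the log2 fold change was -0.03.

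dpy-7, also on the X chromosome, encodes the furrow collagen most used to display the furrows, and its promoter is a standard tool for driving transgenes in the epidermis. Its probe set 192146_s_at read 2796, 2554 and 2299 in the yap-1(ys38) arrays, against 3116, 1938 and 2225 in wild type replicates 1, 2 and 3. Wild type replicate 1 was the highest and wild type replicate 2 the lowest of all arrays, with every yap-1(ys38) array between them. The log2 means were 11.31 ± 0.14 (SD, n = 3) in yap-1(ys38) and 11.36 ± 0.34 (SD, n = 2) in wild type, and the fold change was 0.965 with an interval from 0.711 to 1.31 (limma, adjusted p = 0.9998). It had no settled direction, since the log2 fold change was 0.19 without wild type replicate 1, -0.29 without wild type replicate 3 and 0.10 with all 6 arrays.

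The intervals of the 3 genes bound the strain difference more tightly than those of most probe sets. The standard error of the log2 fold change was 0.18 for dpy-2, 0.17 for dpy-3 and 0.19 for dpy-7. The median was 0.27 over all probe sets tested, most of which were dimmer than these. Standard errors were not compared among probe sets of like brightness. With all 6 arrays and no filter on intensity the log2 fold changes were 0.08 for dpy-2, 0.21 for dpy-3 and 0.10 for dpy-7, with intervals that again held 0.

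**Figure D1:**
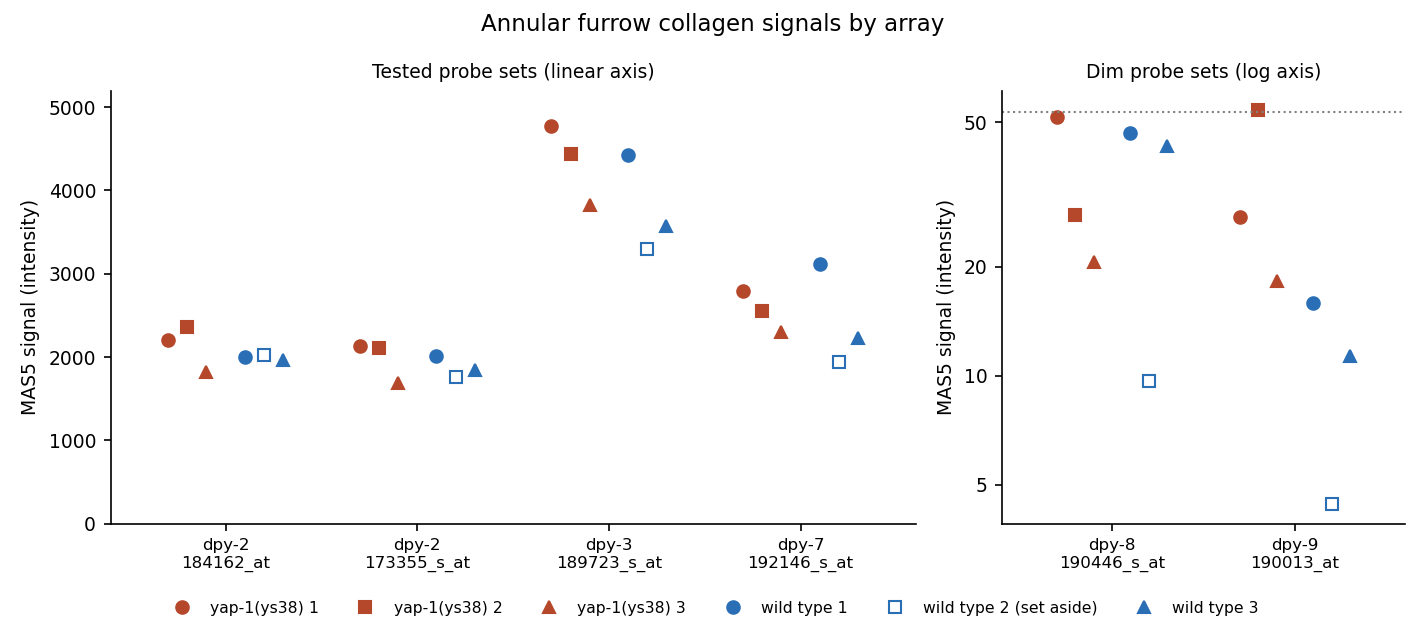
MAS5 signal (intensity, vertical axis) of each furrow collagen probe set (horizontal axis) in the 6 arrays, with yap-1(ys38) arrays left of wild-type arrays and 1 point per array, on a linear axis for the tested probe sets and a log axis for the dim ones. At dpy-2, dpy-3 and dpy-7 the strains overlap between 1686 and 4775, whereas dpy-8 and dpy-9 lie below the filter intensity of 53.5 (dotted line) in all arrays but yap-1(ys38) replicate 2 at dpy-9.

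The other 2 measured members lay near the bottom of the scale, where a MAS5 signal says little about the amount of RNA. Detection calls were not used here. dpy-8, a furrow collagen gene on the X chromosome, read 51.6, 27.7 and 20.6 in yap-1(ys38) replicates 1, 2 and 3, against 46.8, 9.69 and 42.9 in wild type replicates 1, 2 and 3 at probe set 190446_s_at. The strains overlapped and no array stood above the filter intensity of 53.5. When every probe set was fitted, its log2 fold change was -0.54 with an interval from -2.16 to 1.09.

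dpy-9, on chromosome IV, was the only measured member at which every yap-1(ys38) array lay above every wild-type array. Its probe set 190013_at read 27.3, 53.99 and 18.2 in yap-1(ys38) replicates 1, 2 and 3, against 15.9, 4.43 and 11.3 in wild type replicates 1, 2 and 3. Only yap-1(ys38) replicate 2 reached the filter intensity of 53.5. In the fit of all 22548 probe sets without a filter its log2 fold change was 1.16, SE 0.86, with an interval from -0.79 to 3.11 (limma, unadjusted p = 0.211), and that fit called 0% of the probe sets, with 574 (2.55%) at an unadjusted p under 0.05. Of the same probe sets, 8.19% had the yap-1(ys38) group wholly above wild type replicates 1 and 3 and 4.71% wholly above the 3 wild-type arrays. With all 6 arrays the log2 fold change of dpy-9 was 1.69, with an interval from -0.27 to 3.65.

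**Figure D2:**
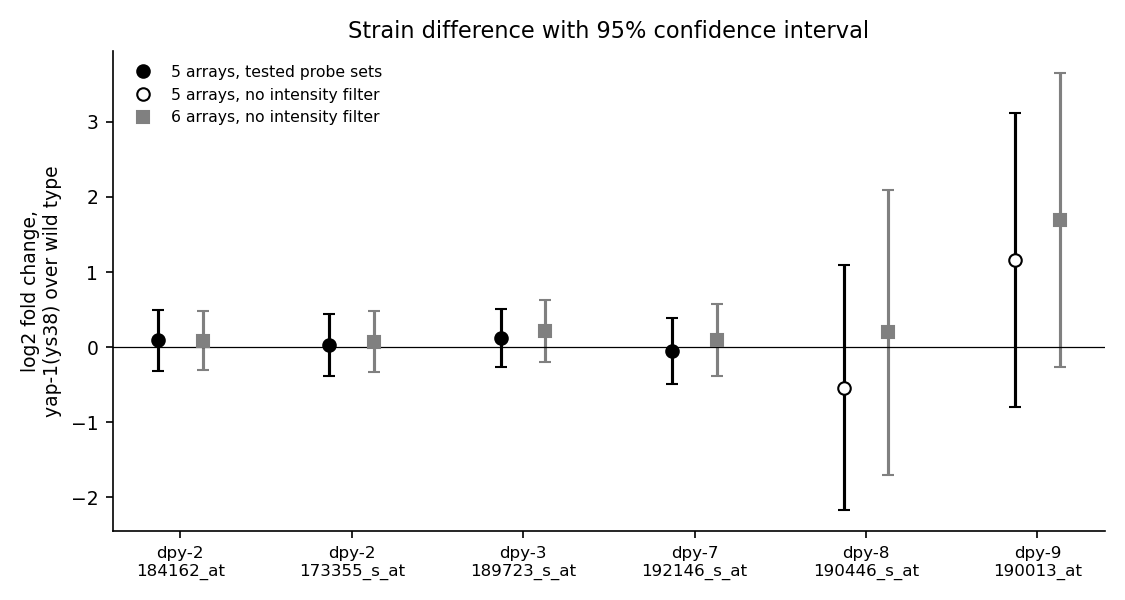
Log2 fold change of yap-1(ys38) over wild type (vertical axis) for each furrow collagen probe set (horizontal axis), with 95% confidence intervals from limma, for the 5 arrays the submitters kept (circles) and for all 6 arrays without an intensity filter (squares). Every interval holds 0, and the intervals of dpy-8 (-2.16 to 1.09) and dpy-9 (-0.79 to 3.11) are several times as wide as those of dpy-2, dpy-3 and dpy-7.

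Across all arrays the well measured furrow collagens varied less than most probe sets tested, though not consistently less than probe sets of like brightness. Over all 6 arrays the highest value exceeded the lowest 1.29-fold and 1.27-fold at the probe sets of dpy-2, 1.45-fold at dpy-3 and 1.61-fold at dpy-7, against 5.32-fold and 12.2-fold at the dim dpy-8 and dpy-9. On the log2 scale the ranges of the brighter dpy-2 set, of dpy-3 and of dpy-7 were 0.37, 0.53 and 0.69, beside a median range of 0.96 over all probe sets tested. Bright probe sets vary less in general: among the 1818 tested probe sets at least as bright as the dimmer dpy-2 set the median range was 0.58, and 18.6%, 42.5% and 61.8% of these had a smaller range than dpy-2, dpy-3 and dpy-7. Over the 5 arrays compared, without wild type replicate 2, these shares were 41.3%, 52.1% and 63.5%, so all 3 genes lay near the middle of probe sets of their brightness.

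Replicates 1 and 3 differed the same way in both strains. At all 4 tested furrow collagen probe sets, 2 of them of dpy-2, replicate 3 read lower than replicate 1 both in yap-1(ys38) and in wild type, as did 29.5% of all probe sets tested, and the dim dpy-8 and dpy-9 did so too. Between yap-1(ys38) replicates 3 and 1 the log2 difference was -0.28 for dpy-2 (brighter probe set), -0.32 for dpy-3 and -0.28 for dpy-7, and between wild type replicates 3 and 1 it was -0.02, -0.31 and -0.49. The 3-prime to 5-prime ratio of the control transcripts was higher in replicate 3 than in replicate 1 of both strains, by the values given above, and its part in these differences was not tested.

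Set against the array of the same number, yap-1(ys38) had no constant direction at dpy-2, dpy-7 or dpy-8. dpy-2 (brighter probe set) differed by 0.14, 0.22 and -0.11 on the log2 scale for numbers 1, 2 and 3, yap-1(ys38) minus wild type. dpy-7 differed by -0.16, 0.40 and 0.05. dpy-3 was higher in yap-1(ys38) for every number, by 0.11, 0.43 and 0.10, and dpy-9 likewise, by 0.78, 3.61 and 0.69. For number 2, which holds the wild-type array set aside, yap-1(ys38) was the higher at all 4 tested probe sets, as it was at 52.7% of all probe sets tested, and at both dim ones.

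**Figure D3:**
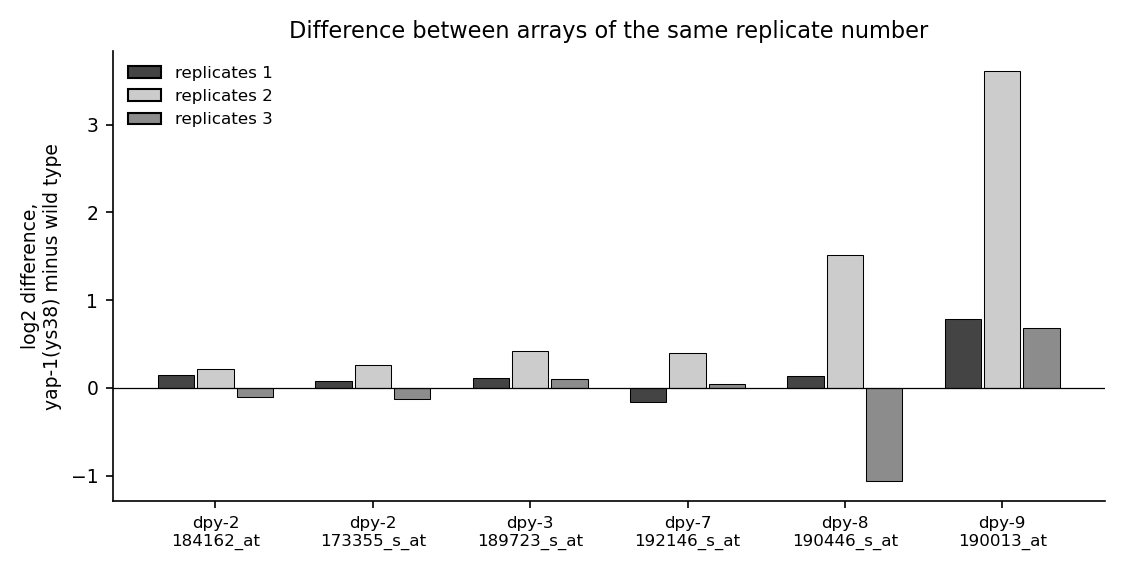
Log2 difference between the arrays of the same replicate number, yap-1(ys38) minus wild type (vertical axis), for each furrow collagen probe set (horizontal axis), with 1 bar for each of the numbers 1, 2 and 3. The bars of number 2 are all above 0 and the tallest is 3.61 at dpy-9, while those of numbers 1 and 3 lie between -0.16 and 0.14 at dpy-2, dpy-3 and dpy-7.

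The 3 genes differed in how alike their patterns were over the 6 arrays. Likeness was taken as the root mean square difference between log2 values centred on each gene's mean over the 6 arrays, a description of 6 arrays that share their scaling. dpy-3 and dpy-7 differed by 0.098, and only 0.577% of the 10234 other genes tested were closer to dpy-3 than dpy-7 was. dpy-2 differed from dpy-3 by 0.16 and from dpy-7 by 0.22, and 7.49% and 20.5% of the other genes were closer to dpy-2 than these were. Most of the other genes were dimmer than the 3 furrow collagens, and dimmer probe sets vary more in general. The shares were not taken among genes of like brightness, where they could be larger. The largest departure between the 3 genes was in wild type replicate 1, where dpy-7 stood 0.34 above its own mean, dpy-3 0.14 above and dpy-2 0.04 below.

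By the same measure the genes closest to the mean pattern of the 3 furrow collagens were F46H5.3 (difference 0.030), tomm-7 of the mitochondrial import machinery (0.037), sucl-1 of succinyl-CoA ligase (0.038), pat-4 integrin-linked kinase (0.039), sgt-1 (0.043) and F36A2.7 (0.046), each over 6 arrays. Their log2 fold changes ran from 0.02 to 0.10. None of these 6 is a collagen of the lists used here.

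The other collagens that set body shape were likewise not called different between the strains. Of 15 such genes, 13 had a probe set and 9 were tested, and 0 rose or fell (limma, 0 also at an unadjusted p under 0.05), with a median log2 fold change of 0.02. The closest to the threshold was rol-8, which read 107, 86.5 and 86.4 in yap-1(ys38), against 171, 60.7 and 123 in wild type replicates 1, 2 and 3 (log2 fold change -0.64, SE 0.34). dpy-14, an embryonic collagen, read 18292, 18363 and 19080 in yap-1(ys38), against 18005, 12318 and 14918 in wild type (0.18, SE 0.12). dpy-5 stood at 0.41 (SE 0.46). The yap-1(ys38) group lay wholly above wild type replicates 1 and 3 at 1 of the 9 genes, dpy-14, and wholly below them at 1, rol-8, beside 5.9% and 4.92% of all probe sets tested.

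The array set aside, wild type replicate 2, read below both other wild-type arrays at 5 of the 6 furrow collagen probe sets and at 3 of the 4 tested, as at 40.3% of all probe sets tested. On the log2 scale dpy-2 differed from the mean of wild type replicates 1 and 3 by 0.04 at its brighter probe set and by -0.13 at the other. dpy-3 differed by -0.27 and dpy-7 by -0.44, and the dim dpy-8 and dpy-9 by -2.21 and -1.60. The median difference over all probe sets tested was 0.01, with 37.5% of them lower than dpy-3 and 31% lower than dpy-7. Over every probe set, the untested dim ones included, the array median was 0.51 lower (-0.51 on the log2 scale), and centring the arrays on that median turns the differences of dpy-3 and dpy-7 to 0.24 and 0.06, so their direction in this array depends on the scaling.

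All 9 other body-shape collagens tested lay below both wild-type arrays in wild type replicate 2, with a median log2 difference of -1.25 and 8 of 9 still lower after centring on the array median (median -0.75). Their values overlapped those of the furrow collagens: dpy-14 differed by -0.41 and dpy-17 by -0.55. The dim members of that group, lon-3, rol-8, dpy-5 and sqt-2, differed by -4.69, -1.25, -1.42 and -0.81, and sqt-3 by -0.88. dpy-4 and dpy-13, which are bright, read 2188 and 1257 in wild type replicate 2, against 6797 and 7024 in wild type replicate 1 and 6267 and 3357 in replicate 3. The probe sets of dpy-4, dpy-13 and sqt-3 have the suffix _x_at, which marks probes that may also match other genes. Those of the bright dpy-14 and dpy-17 do not. These genes of the list were named after their values were seen. This is 1 array, and the difference between the groups has no test.

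**Figure D4:**
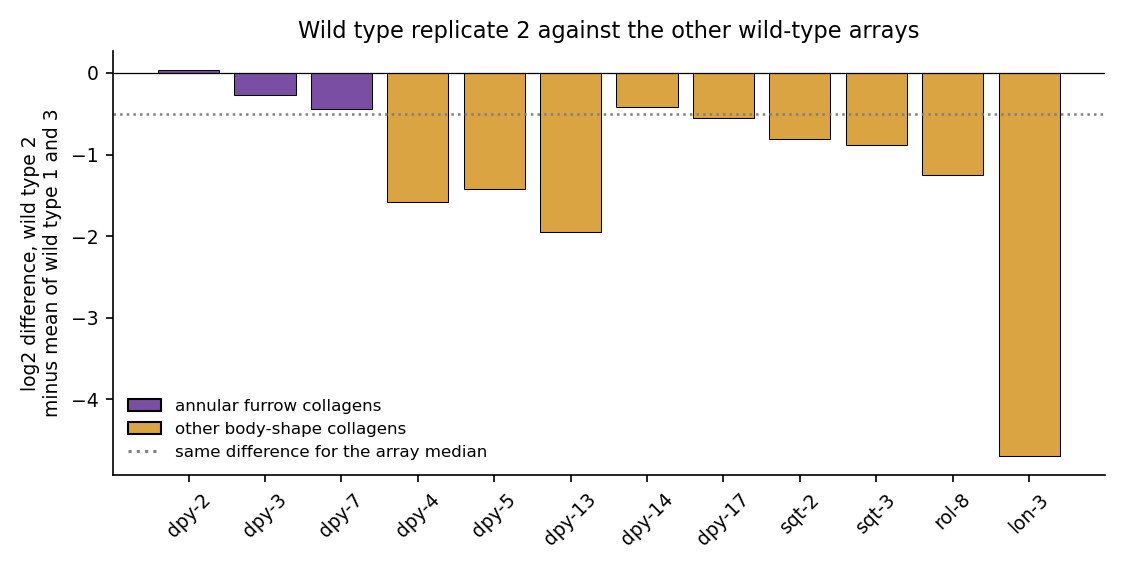
Log2 difference of wild type replicate 2 from the mean of wild type replicates 1 and 3 (vertical axis) for the tested furrow collagens and the other tested body-shape collagens (horizontal axis), with 1 bar per gene and a dotted line at the difference of the array medians (-0.51). The furrow collagens lie between -0.44 and 0.04 and the other collagens between -4.69 and -0.41, so that dpy-14 lies within the range of the furrow collagens.

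Other genes and gene groups also stood apart in the same array. The muscle markers myo-3 and unc-54 read 438 and 535 in wild type replicate 2, against 1127 and 1735 in wild type replicate 1 and 1379 and 1728 in replicate 3. The gut protease gene asp-1 read 1655 there, against 8573 and 9226 in wild type replicates 1 and 3. The neuronal convertase gene egl-3 read 180, against 679 and 1103. Other markers of these tissues did not all follow. Muscle unc-15 and neuronal snb-1 and unc-64 were also lowest there among the wild-type arrays. Gut elt-7 (698, against 555 and 468) and neuronal unc-119 (1523, against 1248 and 1232) were highest there. Muscle hlh-1 and gut elt-2 and ges-1 lay between wild type replicates 1 and 3. The genes induced by furrow loss had a median log2 difference of -1.25 in this array and the collagen processing genes one of -0.68. All 13 early maternal genes, transcripts that the oocyte loads and that early embryos hold, lay above both other wild-type arrays in this array. Their median log2 difference was 0.76, beside 0.01 over all probe sets tested. The share of all probe sets that lay above both was not counted. The summed intensity of the early maternal genes was 30810 to 43162 in the yap-1(ys38) arrays. In wild type replicates 1 and 3 it was 33920 and 38581, against 52382 in wild type replicate 2. The 5 yolk protein genes, made by the adult gut, summed to 4500, 901 and 284 in yap-1(ys38) replicates 1, 2 and 3. In wild type replicates 1, 2 and 3 they summed to 7058, 12316 and 131, with none at 0. The 10 sperm genes tested summed to 3357, 1440 and 893 in yap-1(ys38) replicates 1, 2 and 3. In wild type replicates 1, 2 and 3 they summed to 3378, 4877 and 617. For yolk and sperm genes alike, replicate 3 was thus the lowest array of each strain, and wild type replicate 3 is in the strain comparison. The part of all these genes in the values of the furrow collagens was not tested.

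The 12 genes listed for the hydroxylation, trimming and cross-linking of collagen all had a probe set. Of these, 11 were tested and 0 rose or fell (0 at an unadjusted p under 0.05, median log2 fold change -0.02). mlt-7, a peroxidase of cuticle cross-linking, stood at 0.24 (SE 0.28). pdi-2, the protein disulphide isomerase that is part of prolyl 4-hydroxylase, read 14298, 16473 and 11001 in yap-1(ys38), against 13974, 11445 and 11739 in wild type replicates 1, 2 and 3 (0.10, SE 0.18). dpy-18, the catalytic subunit of the same enzyme, stood at 0.14 (SE 0.34), with -0.08 and 0.02 at its other probe sets.

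Of the 10 epidermal transcription factors, all tested, 0 passed the adjusted test and the median log2 fold change was 0.003. nhr-23, a nuclear receptor required for moulting, was the 1 with an unadjusted p under 0.05 (limma, unadjusted p = 0.0338, adjusted p = 0.9998). Its brighter probe set read 1186, 1099 and 1105 in yap-1(ys38), against 774, 900 and 862 in wild type replicates 1, 2 and 3, so the yap-1(ys38) group lay wholly above the 3 wild-type arrays, as at 2.86% of all probe sets tested. The log2 fold change was 0.47 (SE 0.19), but it was -0.50 at the other probe set of the same gene. lin-29, a factor of the adult epidermal switch, stood at 1.28 (SE 0.70), with wild type replicate 3 at 12.5 and wild type replicate 1 at 75.6, and lin-26 stood at -0.25 (SE 0.16).

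Genes of the precuticle, the apical matrix that covers the embryonic epidermis before the first cuticle, did not pass the test either (11 of 11 tested, 0 at an unadjusted p under 0.05, median log2 fold change 0.09). The lipocalin gene lpr-1 read 304, 382 and 280 in yap-1(ys38), against 419, 386 and 444 in wild type replicates 1, 2 and 3, a difference of -0.43 (SE 0.25). egg-6, a leucine-rich repeat protein of the excretory duct and epidermal matrix, read 1344, 1696 and 1256 in yap-1(ys38), against 1183, 1491 and 1058 in wild type replicates 1, 2 and 3 (0.34, SE 0.20, and 0.36 at its other probe set). Over wild type replicates 1 and 3 the yap-1(ys38) group lay wholly below at lpr-1 and wholly above at egg-6, 1 of the 11 genes each, beside 4.92% and 5.9% of all probe sets tested. dex-1 stood at -0.23 (SE 0.20).

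The genes known to be switched on when furrows are lost showed no common direction. Of 13, 12 had a probe set and 11 were tested, 5 with a higher and 6 with a lower mean in yap-1(ys38), and 0 rose or fell (0 at an unadjusted p under 0.05, median log2 fold change -0.03). hmit-1.1, a myo-inositol transporter of the osmotic response, stood at -0.50 (SE 0.30), and gpdh-2, a glycerol-3-phosphate dehydrogenase, at -0.25 (SE 0.17). nlp-28, of the antimicrobial nlp cluster, read 422, 395 and 606 in yap-1(ys38), against 303, 149 and 412 in wild type replicates 1, 2 and 3 (0.40, SE 0.28). The 12 genes listed for signalling from the furrow, all tested, gave a median of 0.02 with 0 called and 0 at an unadjusted p under 0.05. Among them were elt-3, an epidermal GATA factor also counted above (0.30, SE 0.24), the adaptor tir-1 (-0.33, SE 0.26) and skn-1 of the detoxification response (0.23, SE 0.19).

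Of 6 collagens of the adult cuticle, which would mark carried-over adult epidermis, 4 had a probe set and 3 were tested, with 0 called. col-63 had an unadjusted p under 0.05 and read 287, 225 and 249 in yap-1(ys38), against 186, 61.6 and 100 in wild type replicates 1, 2 and 3 (log2 fold change 0.89, SE 0.33, limma adjusted p = 0.9998). col-19, the usual marker of the adult cuticle, read 75.4, 60.5 and 40.04 in yap-1(ys38), against 82.1, 236 and 44.6 in wild type, highest in wild type replicate 2, and col-38 stood at 0.08 (SE 0.57).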

How the data were processed

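The deposited values are MAS5 intensities, 1 per probe set on a linear scale, made with Microarray Suite and scaled globally on each array by the authors, per the series' design text and the submitters' processing notes. The sources used here give no further settings. They were log2-transformed and not normalized further. The 77 control probe sets were left out, and the 13529 of 22548 others with a mean log2 intensity above the 40th percentile (geometric mean 53.5) were tested by moderated linear models (limma 3.58.1, run under R 4.3.3, with a prior variance that follows intensity), two-sided with Benjamini-Hochberg adjustment at 0.05. Intervals are 95% and unadjusted.

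Gene names came from the platform annotation and the RefSeq table of assembly WBcel235, which was used for names and neighbours only: 20701 of 20766 single symbols matched. A gene was represented by its brightest tested probe set. A suffix _s_at marks probes shared by more than 1 transcript in Affymetrix naming, and _x_at marks probes that may also match other genes. The sets used for dpy-4, dpy-13, sqt-3, nlp-28 and the sperm genes tested are among those with _x_at. Cross-hybridisation, between collagens or with other genes, was not tested. Named genes were the members, the 3 genes of each list that had the lowest p, and the 6 genes of most similar pattern. The members and the 11 lists were chosen with earlier results of these data known.

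Replicate numbers were read from the titles. After subtraction of the strain mean, arrays of the same number correlated across probe sets at 0.364, 0.345 and 0.445 and arrays of different numbers at 0.015 or less. Subtracting the strain mean itself lowers the values for different numbers when those for the same number are positive. The numbers were treated as pairing the arrays only in the blocked fits and the same-number differences. The series' design text uses no block, so the results are from the fit without it, and the blocked fit is an alternative. Other settings tried were all 6 arrays, the replicate block, other normalizations, other filters, a floor, a constant prior variance, the methods' t-test, the mean of a gene's probe sets and the omission of each replicate.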

Additional observations from a re-analysis of the deposited data

How the results depend on the processing

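The count of furrow collagens past the test was 0 under every one of the 17 alternatives run, and the lowest adjusted p of any of the 3 genes was 0.885. With the replicate block on the 5 arrays, where yap-1(ys38) replicate 2 has no partner and 2 pairs carry the estimate, limma called 12 probe sets over the whole array, and the median log2 fold change of the 3 genes was 0.017. With the block on all 6 arrays (3 pairs) it called 0, and the median was 0.10. On leaving out 1 replicate the whole-array count ran from 0 to 3, the 3 arising without wild type replicate 1, and the median of the 3 genes from -0.03 to 0.20. The sign of dpy-7 turned with all 6 arrays (0.10, with or without the block). Leaving out 1 array at a time gave dpy-7 from -0.29 to 0.19. It was higher in yap-1(ys38) when wild type replicate 1 (0.19) or the third yap-1(ys38) array (0.02) was left out. dpy-3 ran from -0.033 to 0.28, the lowest when wild type replicate 3 was left out. Leaving out wild type replicate 1 or 3 left 1 wild-type array in the fit. With all 6 arrays and each array centred on its median, an alternative chosen after seeing the data, dpy-2 turned to -0.11 and the median was -0.09. The cause was not tested. With 2 wild-type arrays in the comparison, differences inside the intervals given are not excluded. The intervals are unadjusted and are not a limit of detection of the adjusted test. dpy-8 and dpy-9 lie too near the bottom of the intensity scale for the sizes of their differences to be read.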
